A study of Saccharomyces cerevisiae with 8 samples.

Results

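The genes described here build and run the replicative helicase of budding yeast, Saccharomyces cerevisiae. They are MCM2 (YBL023C), MCM3 (YEL032W), MCM4 (YPR019W), MCM5 (YLR274W), MCM6 (YGL201C), MCM7 (YBR202W), MCM10 (YIL150C), CDC45 (YLR103C) and CDC6 (YJL194W), 9 of the 6692 genes in the deposited table. They were taken by identifier and for their known function, with earlier results of these data known. All 9 had enough reads to be tested. RNA from 8 libraries was compared in 4 groups of 2, RAD27 knockout cells at 37 °C, RAD27 knockout cells at 30 °C, wild type cells at 37 °C and wild type cells at 30 °C. All cultures grew overnight at 30 °C in YPD, a rich medium with glucose, and were then diluted and held at the given temperature for 4 hours. Libraries were made from total RNA with a kit that selects mRNA. RAD27 encodes a nuclease that removes the 5′ flaps of Okazaki fragments so that they can be ligated, and the series asked what its loss does to gene expression. The labels name neither the parent strain nor the marker used for the knockout, nor whether a replicate is a culture of its own, so that a p measures the spread between these libraries, which may be technical.

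A replication origin is licensed in late mitosis and G1. The origin recognition complex, Cdc6 and Cdt1 load a double ring of the MCM2 to MCM7 proteins onto the DNA there. In S phase, kinases recruit Cdc45 and the GINS complex to each ring, and Mcm10 helps the finished helicase, called CMG, to begin unwinding. Cdc6 is destroyed outside G1, which limits licensing to one round per cell cycle. In this yeast CDC6 and several MCM genes are known to be transcribed around the M/G1 boundary through the early cell cycle box (ECB), a palindrome bound by Mcm1 and repressed by Yox1 and Yhp1. CDC45 belongs to the genes known to peak at G1/S, many of which carry the MluI cell cycle box (MCB) bound by the factor MBF.

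The upstream DNA of the members was read from the R64 genome (RefSeq), in the 200 bases from 250 to 51 bases before the start codon, and searched on both strands. An ECB-like palindrome was written as TTNCC and GGNAA with 6 bases of any kind between them, where N is any base, and the MCB as ACGCGT. The palindrome stood upstream of 5 of the 9 members, MCM3, MCM5, MCM6, MCM7 and CDC6, and in 0.799% of all windows of this length (48 of 6004). MCM7 and CDC6 each held a pair of palindromes side by side. The MCB stood upstream of CDC6 and CDC45, and in 2.7% of all windows (162). MCM2, MCM4 and MCM10 held neither in this window. The shorter Mcm1 core, CC and GG with 6 bases between them, which every such palindrome contains, was in 6 of the 9 members, the same 5 and MCM2, and in 20.5% of windows. A match is a run of letters and was not tested for binding.

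The first 150 bases of these windows, counted from the end farthest from the start codon, are shown for the 6 genes with a match, since the RNA of these genes is compared below. They are intergenic and are written 5′ to 3′ on the strand of the gene, with ECB-like palindromes and MCBs in capitals. The stretch of CDC6 is chrX:69088-69237 (plus strand) and that of MCM3 chrV:86687-86836 (plus strand). That of MCM5 is chrXII:691305-691454 (plus strand), that of MCM6 chrVII:121008-121157 (minus strand), that of MCM7 chrII:625522-625671 (plus strand) and that of CDC45 chrXII:346042-346191 (minus strand).
CDC6: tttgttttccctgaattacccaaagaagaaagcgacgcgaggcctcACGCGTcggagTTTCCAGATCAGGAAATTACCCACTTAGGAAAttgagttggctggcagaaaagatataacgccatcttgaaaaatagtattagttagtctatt
MCM3: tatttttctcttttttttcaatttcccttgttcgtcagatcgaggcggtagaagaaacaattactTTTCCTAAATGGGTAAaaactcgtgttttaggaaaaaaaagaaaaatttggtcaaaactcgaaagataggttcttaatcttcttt
MCM5: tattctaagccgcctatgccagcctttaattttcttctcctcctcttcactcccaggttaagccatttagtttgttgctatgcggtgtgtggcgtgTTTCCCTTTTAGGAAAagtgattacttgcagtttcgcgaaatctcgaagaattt
MCM6: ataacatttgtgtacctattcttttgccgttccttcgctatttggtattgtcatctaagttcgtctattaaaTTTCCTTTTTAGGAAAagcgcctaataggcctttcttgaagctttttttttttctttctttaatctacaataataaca
MCM7: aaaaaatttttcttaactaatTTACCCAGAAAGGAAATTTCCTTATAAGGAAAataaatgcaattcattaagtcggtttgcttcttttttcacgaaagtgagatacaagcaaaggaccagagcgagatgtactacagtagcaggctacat
CDC45: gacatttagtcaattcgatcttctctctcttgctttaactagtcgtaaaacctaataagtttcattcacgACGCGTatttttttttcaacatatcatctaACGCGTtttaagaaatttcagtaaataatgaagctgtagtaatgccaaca

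**Figure D1:**
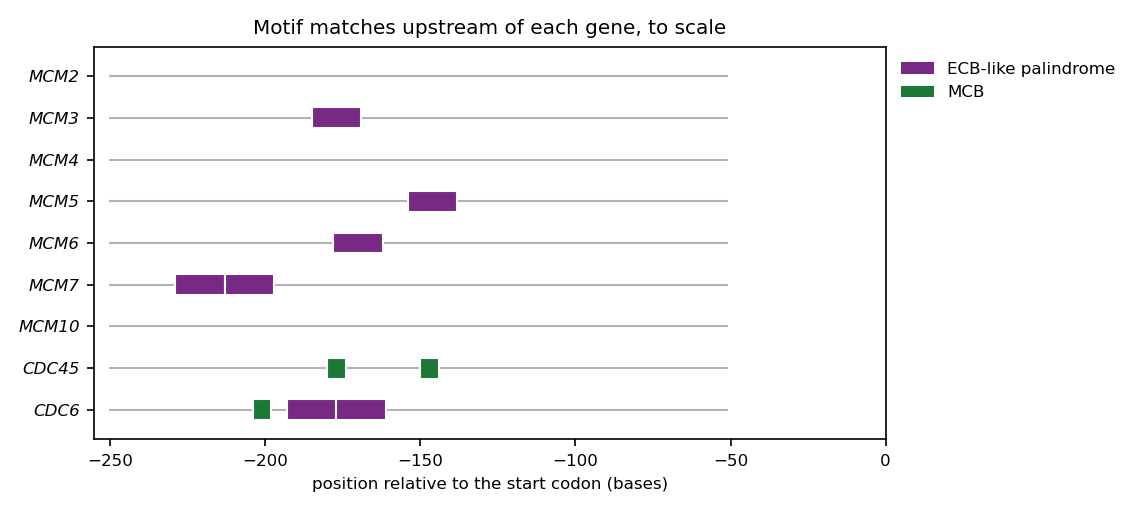
Positions of motif matches upstream of the 9 genes, in bases relative to the start codon (horizontal axis), with a grey line for the 200 bases searched. Palindromes (purple) lie upstream of CDC6, MCM3, MCM5, MCM6 and MCM7, and MCBs (green) upstream of CDC6 and CDC45.

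Each member is a single coding exon that no other annotated gene overlaps. MCM2 lies on chromosome II (174920 to 177526, minus strand), as does MCM7 (625772 to 628309, plus strand). MCM5 (691555 to 693882, plus strand) and CDC45 (343989 to 345941, minus strand) are on chromosome XII. MCM3 is on chromosome V (86937 to 89852, plus strand), MCM4 on XVI (596750 to 599551, plus strand) and MCM6 on VII (117854 to 120907, minus strand). MCM10 is on chromosome IX (61013 to 62728, minus strand) and CDC6 on X (69338 to 70879, plus strand). No member had a near-identical copy that could share its reads. The best match among coding genes was between MCM6 and MCM7, at 76.2% identity over 6.06% of MCM6.

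Library totals ran from 4734266 to 5588983 counts, and the members had between 139 and 1376 counts in a library. RAD27 had 0 counts in all 4 knockout libraries and 479 to 533 counts in the 4 wild type libraries, so the libraries matched their genotype labels. Replicates differed most in the knockout at 37 °C, with a chi-square per degree of freedom of 8.69, against 1.85 to 3.95 in the other groups, where counting error alone gives 1. Across all 5667 genes tested, called genes made up 59.8% in knockout against wild type at 37 °C, 29.6% in that comparison at 30 °C, 59.1% in the knockout at 37 against 30 °C and 32.8% in wild type at 37 against 30 °C. A gene is called where its adjusted p was under 0.05. These comparisons share libraries, so that one library can move 2 of them at once. In bulk RNA, fewer cells in a phase of the cycle and less RNA per cell cannot be told apart.

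Levels between genes were compared as CPM per kilobase of coding length, where CPM is a gene's count relative to the library total after TMM scaling. MCM3 was the most abundant member in every library. Its length-scaled level was 66.5 ± 0.893 in the knockout at 37 °C, 86.6 ± 7.66 in the knockout at 30 °C, 67.4 ± 1.45 in wild type at 37 °C and 77.3 ± 2.67 in wild type at 30 °C (SD, n = 2 each). Among the ring subunits the least abundant was MCM2 in 6 libraries and MCM6 in both knockout libraries at 30 °C. The subunits of a ring that holds equal numbers of each thus differed in RNA by a factor of 2.27 to 2.64 between the highest and the lowest within a library. In wild type at 30 °C the order of length-scaled levels was MCM3, MCM7, MCM4, MCM5, MCM6, MCM2, CDC6, CDC45 and MCM10. There MCM7 and MCM4 overlapped between libraries, as did CDC6 and CDC45, and the other neighbours did not.

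The order was different in the other groups. In the knockout at 30 °C CDC6 was the fifth, next to MCM5 (43.0 ± 3.02 per kilobase, overlapping MCM5 at 44.5 ± 2.01), and MCM10 was last (19.7 ± 0.929). In the knockout at 37 °C CDC6 was last (21.0 ± 2.58), and CDC45 (31.8 ± 2.34) overlapped MCM6 (31.0 ± 1.87). In wild type at 37 °C MCM10 was the sixth (31.2 ± 0.405), above MCM2 (28.2 ± 0.905), and CDC6 was last (21.8 ± 2.41), overlapping CDC45 (23.1 ± 0.547).

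**Figure D2:**
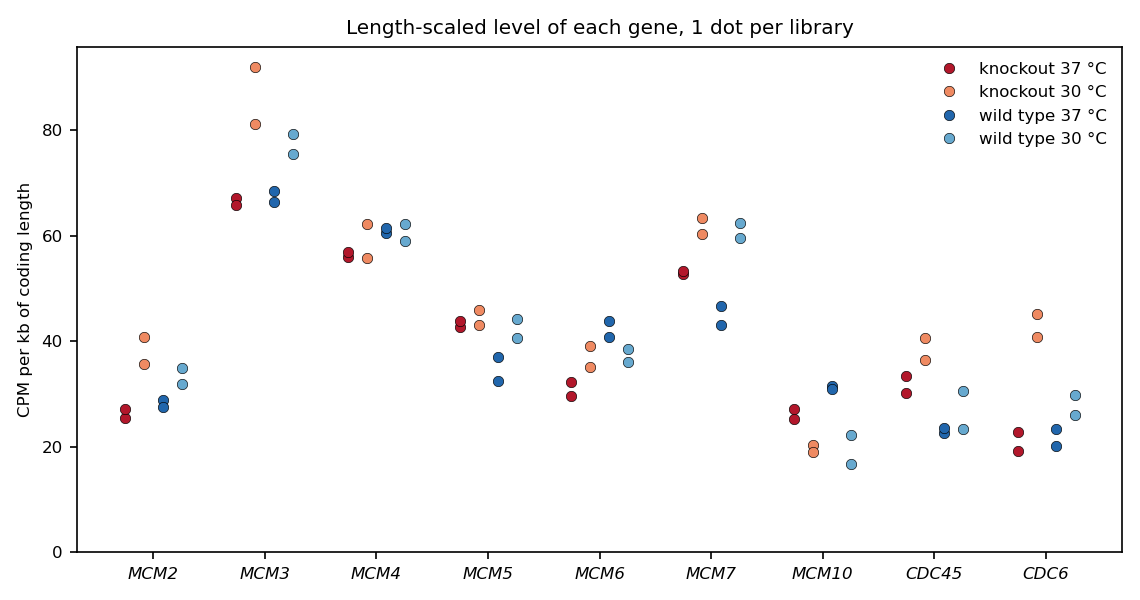
Length-scaled level (CPM per kilobase of coding length, vertical axis) of each gene in each library, with 1 dot per library and colours for the 4 groups. MCM3 is highest throughout, and CDC6 stands near 43 in the knockout at 30 °C and between 19 and 30 elsewhere.

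CDC6, for the ATPase that loads the MCM ring, had the widest range of the members across groups as a fold, while MCM3 had the widest in CPM. Knockout cells held 35.2 and 29.5 CPM at 37 °C (replicates 1 and 2) and 69.6 and 63.0 CPM at 30 °C. In wild type it stood at 36.2 and 31.0 CPM at 37 °C and at 46.0 and 40.0 CPM at 30 °C. Both knockout libraries at 30 °C were above all 6 others, and at 37 °C the genotypes overlapped. CDC6 was 1.54-fold higher in the knockout than in wild type at 30 °C (log2 fold change 0.63 ± 0.12 SE, adjusted p = 0.00198). At 37 °C that comparison did not pass (-0.06 ± 0.13, adjusted p = 0.731). In the knockout CDC6 fell to 0.487 of its 30 °C level at 37 °C (-1.04 ± 0.12, adjusted p = 1.13e-05).

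In wild type CDC6 stood at -0.35 ± 0.13 with temperature and was not called (adjusted p = 0.0564), although it was in 5 of 16 other settings. The heat response of CDC6 differed between the genotypes by -0.68 ± 0.18 on the log2 scale (adjusted p = 0.0112). Leaving out any of 3 libraries, knockout replicate 1 at 30 °C or wild type replicates 1 at 37 °C and 2 at 30 °C, ended that call (adjusted p between 0.0518 and 0.0611). The rise at 30 °C and the fall in the knockout were called in all 16 other settings.

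**Figure D3:**
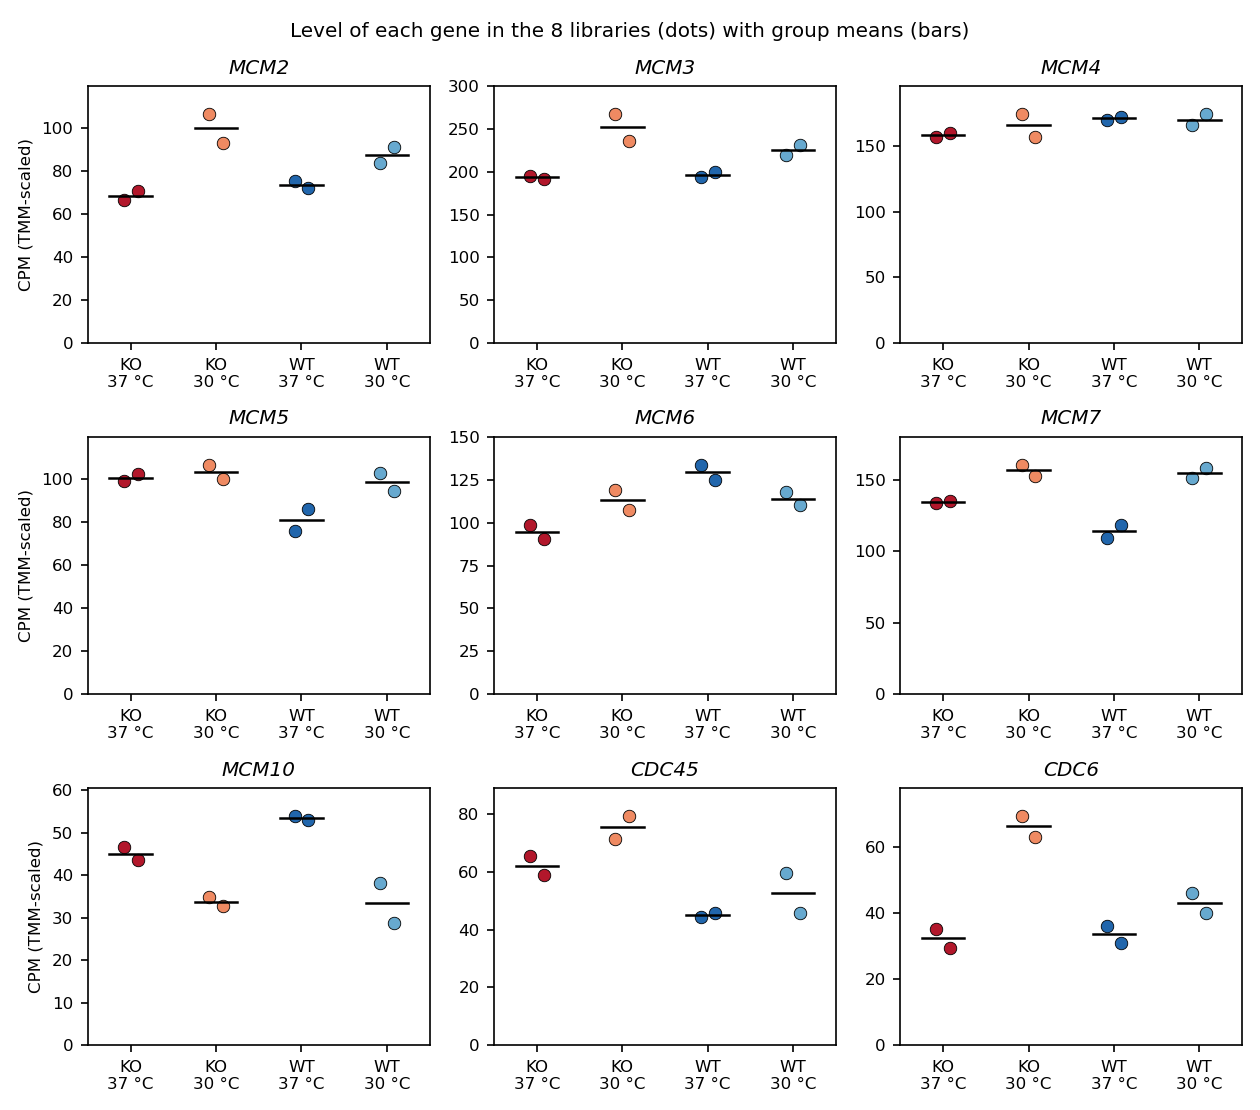
CPM (vertical axis, from 0) of the 9 genes in the 4 groups, with a dot for each of the 2 libraries of a group and a bar for their mean. CDC6 is highest in the knockout at 30 °C (69.6 and 63.0 CPM), and MCM10 is higher at 37 than at 30 °C in both genotypes.

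CDC45, whose product joins the ring when the helicase is activated, was higher in the knockout at both temperatures. At 37 °C it stood at 65.4 and 58.9 CPM in the knockout, against 44.3 and 45.9 CPM in wild type (log2 fold change 0.46 ± 0.12, adjusted p = 0.00564). At 30 °C it stood at 71.4 and 79.5 CPM in the knockout, against 59.6 and 45.8 CPM in wild type (0.52 ± 0.12, adjusted p = 0.0059). The genotypes did not overlap at either temperature, which also held for MCM2, called at neither. How many of all genes lacked overlap was not counted, so this adds nothing to the calls. Among libraries of the temperature concerned, leaving out wild type replicate 1 ended the call at 37 °C (0.41, adjusted p = 0.0581), and leaving out wild type replicate 2 (0.34, adjusted p = 0.0893) or knockout replicate 2 (0.44, adjusted p = 0.0649) ended that at 30 °C. With temperature CDC45 fell in the knockout by a margin close to the threshold (-0.28 ± 0.11, adjusted p = 0.048, not called in 10 of 16 other settings) and was not called in wild type (-0.22 ± 0.13, adjusted p = 0.212).

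MCM10, whose product helps the loaded helicase to start, moved the other way with temperature. In the knockout it stood at 46.5 and 43.5 CPM at 37 °C, against 34.9 and 32.6 CPM at 30 °C (a log2 difference of 0.41 ± 0.13, adjusted p = 0.0125). In wild type it stood at 54.0 and 53.0 CPM at 37 °C, against 38.1 and 28.7 CPM at 30 °C (0.68 ± 0.13, adjusted p = 0.00123). Under TMM scaling of all 8 libraries no other member was called higher with temperature in either genotype. The knockout call did not hold with DESeq2 (adjusted p = 0.0696) or when knockout replicate 2 at 30 °C was left out (adjusted p = 0.0777). No difference between knockout and wild type was called at 37 °C (-0.25 ± 0.12, adjusted p = 0.0815) or at 30 °C (0.02 ± 0.14, adjusted p = 0.931).

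The 6 ring subunits did not move as a block when knockout was set against wild type at 37 °C. MCM6 was lower, with 98.7 and 90.6 CPM in the knockout, against 134.0 and 124.9 CPM in wild type (log2 fold change -0.45 ± 0.08, adjusted p = 0.000503). MCM5 was higher, with 99.2 and 102.2 CPM in the knockout, against 75.8 and 86.0 CPM in wild type (0.32 ± 0.09, adjusted p = 0.00697). MCM7 was also higher, with 134.0 and 135.5 CPM in the knockout, against 109.5 and 118.7 CPM in wild type (0.24 ± 0.07, adjusted p = 0.0127). For each of these genes the genotypes did not overlap, which also held for MCM2 and MCM4. The share of all genes without overlap was not counted. MCM2, MCM3 and MCM4 were not called (-0.10 ± 0.09, -0.02 ± 0.07 and -0.11 ± 0.07). All 3 called subunits have an ECB-like palindrome upstream, as does MCM3, and MCM6 changed in the opposite direction to MCM5 and MCM7. A part of the palindrome in these changes was not tested. The call of MCM6 held in all 16 other settings, and those of MCM5 and MCM7 were lost without wild type replicate 1 at 37 °C (adjusted p = 0.122 and 0.167), and that of MCM7 also with DESeq2 (adjusted p = 0.0961).

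The ratio of MCM5 to MCM6 RNA per length, which does not depend on how libraries are scaled, followed the same split. Knockout libraries had ratios of 1.32 and 1.48 at 37 °C and of 1.17 and 1.23 at 30 °C. Wild type libraries had ratios of 0.742 and 0.904 at 37 °C and of 1.15 and 1.13 at 30 °C. MCM5 RNA thus exceeded MCM6 RNA in all libraries other than those of wild type at 37 °C. This pair was chosen after its values were seen, and the ratio was not tested.

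With temperature alone the subunits again differed. In wild type MCM7 was 109.5 and 118.7 CPM at 37 °C, against 151.2 and 158.3 CPM at 30 °C (a log2 difference of -0.44 ± 0.07, adjusted p = 0.000591). MCM5 fell by less (-0.29 ± 0.09, adjusted p = 0.0253), a call lost with DESeq2 (adjusted p = 0.106), when scaled to library totals (adjusted p = 0.184) and without wild type replicate 1 at 30 °C or at 37 °C (adjusted p = 0.181 and 0.237). MCM6 was not called (0.18 ± 0.08, adjusted p = 0.111) but was called higher in 3 of 16 other settings, among them scaling to library totals (0.31, adjusted p = 0.0116). MCM2 and MCM3 fell just short of a call (-0.25 ± 0.09, adjusted p = 0.061 and -0.20 ± 0.07, adjusted p = 0.0581). They were called lower in 5 and 6 of 16 other settings. MCM4 stood at 0.01 ± 0.07. In the knockout 4 of the 6 subunits fell with temperature under TMM scaling, and MCM2 alone did when scaled to library totals. MCM2 was 66.3 and 70.7 CPM at 37 °C, against 106.6 and 93.0 CPM at 30 °C (-0.54 ± 0.09, adjusted p = 0.000238). MCM3 was 195.7 and 192.0 CPM at 37 °C, against 268.2 and 236.6 CPM at 30 °C (-0.38 ± 0.07, adjusted p = 0.000629). For both genes the 2 libraries at 37 °C lay below the 2 at 30 °C, which also held for MCM6 and MCM7. The share of all genes without overlap was not counted here either.

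MCM6 and MCM7 fell in the knockout by smaller amounts (-0.26 ± 0.08, adjusted p = 0.0183 and -0.22 ± 0.07, adjusted p = 0.0175), and MCM4 and MCM5 were not called (-0.06 ± 0.07 and -0.04 ± 0.08). The MCM6 call was lost without knockout replicate 1 at 30 °C (adjusted p = 0.164) or replicate 2 at 37 °C (adjusted p = 0.0819), and the MCM7 call without the first of these (adjusted p = 0.106) or with DESeq2 (adjusted p = 0.0554). Scaled to library totals, the median over all genes shifted by 0.238 in this comparison (by 0.125, 0.013, 0.126 and 0.112 in knockout against wild type at 37 and 30 °C, wild type with temperature and the interaction), and then MCM7 stood at 0.02 and was not called while MCM4 was called higher (0.18, adjusted p = 0.0355). MCM4 lay between 156.6 and 174.5 CPM over all 8 libraries and was called in no comparison under TMM scaling. The heat response of MCM6 differed between the genotypes (-0.44 ± 0.12, adjusted p = 0.0126), and under TMM scaling of all 8 libraries no other ring subunit was called for that difference, with MCM2 at -0.30 ± 0.13 (adjusted p = 0.1), MCM5 at 0.25 ± 0.12 and MCM7 at 0.22 ± 0.10. MCM2 was called when knockout replicate 2 at 30 °C was left out (-0.38, adjusted p = 0.0493). Scaled to library totals the MCM6 difference was not called (adjusted p = 0.0507), while those of MCM5 and MCM7 were (0.36 and 0.33, adjusted p = 0.0456 and 0.025). Leaving out the same 3 libraries as for CDC6 ended the MCM6 call too (adjusted p up to 0.0655).

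At 30 °C no ring subunit was called between knockout and wild type. Their log2 fold changes lay between -0.04 ± 0.07 (MCM4) and 0.19 ± 0.09 (MCM2, adjusted p = 0.128), with MCM3 at 0.16 ± 0.07 (adjusted p = 0.111). Of these 6, edgeR gave 1 an unadjusted p under 0.05 (MCM3, 0.045), and DESeq2 called 0. MCM3 was called higher without knockout replicate 2 at 30 °C (0.25, adjusted p = 0.0458) and with a replicate block within genotype (0.24, adjusted p = 0.0461).

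**Figure D4:**
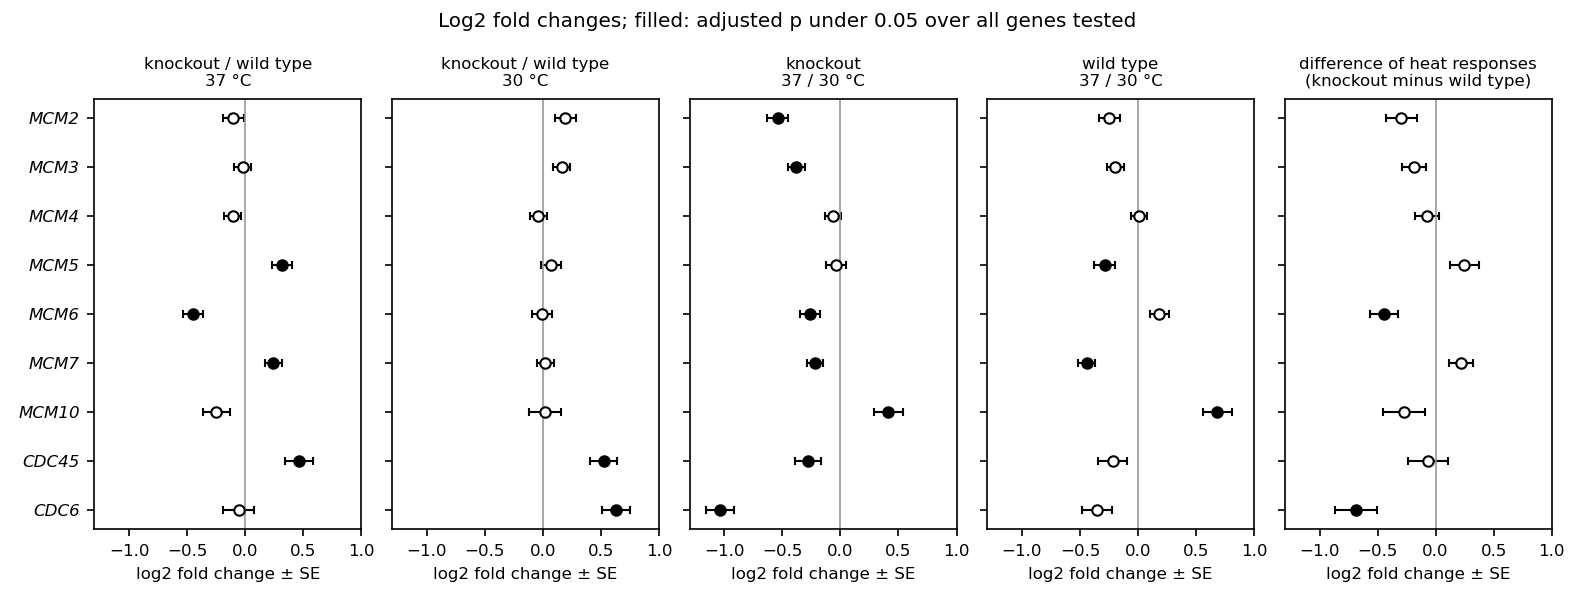
Log2 fold change ± SE (horizontal axis) of the 9 genes in the 5 comparisons, with the first-named group over the second. Filled circles passed an adjusted p of 0.05 over all genes tested. At 37 °C MCM6 lies left of 0 while MCM5, MCM7 and CDC45 lie right of it, and CDC6 has the lowest value in the knockout at 37 against 30 °C (-1.04).

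Counted over all 9 members, 3 were higher and 1 lower in the knockout than in wild type at 37 °C, beside 30.5% and 29.2% of all genes tested. At 30 °C 2 were higher and 0 lower, as in DESeq2, beside 14.6% and 15% of all genes, and 3 were higher and 0 lower at an unadjusted p of 0.05. In the knockout at 37 against 30 °C 1 was higher and 6 lower, beside 30.9% and 28.2%, where DESeq2 called 0 and 4 and scaling to library totals 2 and 2. In wild type at 37 against 30 °C 1 was higher and 2 lower, beside 15.7% and 17.1%. In wild type the count was 2 higher and 5 lower at an unadjusted p of 0.05 or when only the compared libraries were fitted, and 5 to 7 were called without any 1 of the 4 knockout libraries. The difference between the heat responses was called for 2, both lower, beside 16.4% and 17.2% of all genes in the 2 directions (33.6% in all). The median log2 fold change of the 9 was -0.057, 0.068, -0.26, -0.22 and -0.183 in these 5 comparisons, beside 0.011, -0.003, 0.035, 0.005 and 0.011 over all genes tested.

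The partners of these genes in licensing gave a mixed picture. Of all genes tested, 30.5% were higher and 29.2% lower in the knockout than in wild type at 37 °C. At 30 °C the shares were 14.6% and 15%. With temperature they were 30.9% and 28.2% in the knockout, and 15.7% and 17.1% in wild type. The counts of the gene lists below stand beside these shares, and no list was tested against them. Of the 6 genes of the origin recognition complex, which marks origins for loading, 2 were lower and 0 higher in the knockout than in wild type at 37 °C, ORC3 (-0.85 ± 0.13, adjusted p = 0.00014) and ORC1 (-0.41 ± 0.09, adjusted p = 0.00119). At 30 °C 2 were lower and 0 higher, ORC3 (-0.43 ± 0.14, adjusted p = 0.0337, against 0.134 in DESeq2) and ORC2 (-0.39 ± 0.10, adjusted p = 0.0104). With temperature ORC1 fell in the knockout (-0.39 ± 0.09, adjusted p = 0.00158), and 0 of the 6 were called in wild type by edgeR, by DESeq2 or at an unadjusted p of 0.05. At an unadjusted p of 0.05, 4 ORC genes were lower and 0 higher in the knockout at 37 °C, and 3 and 0 at 30 °C, where DESeq2 called 2 and 0, and 1 and 0.

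Of 9 other factors that load or assemble the helicase, 2 were higher and 1 lower in the knockout at 37 °C and 1 higher and 1 lower at 30 °C. DESeq2 called 0 of the 9 at 37 °C and the same numbers at 30 °C. SLD2, which links Dpb11 to the assembling helicase once phosphorylated, was higher at 37 °C (0.32 ± 0.10, adjusted p = 0.0124, against 0.115 in DESeq2) and at 30 °C (0.67 ± 0.10, adjusted p = 0.000441). PSF1, for a GINS subunit, was lower at 37 °C (-0.44 ± 0.16, adjusted p = 0.0312, against 0.166 in DESeq2) and at 30 °C (-0.76 ± 0.16, adjusted p = 0.00403). SLD5, for another GINS subunit, was higher in the knockout at 37 °C (0.39 ± 0.16, adjusted p = 0.0482) and rose with temperature in the knockout (0.46 ± 0.16, adjusted p = 0.026), and DESeq2 made neither call (adjusted p = 0.24 and 0.158). SLD3 and SLD7, whose products act together to bring Cdc45 to the ring, rose with temperature in the knockout (0.43 and 0.45) and in wild type (0.57 and 0.39). TAH11, the yeast gene for Cdt1, fell with temperature in the knockout (-0.21 ± 0.08, adjusted p = 0.0266). With DESeq2 the calls of SLD3 held in both genotypes, and those of SLD7 (adjusted p = 0.0698 and 0.174) and TAH11 (adjusted p = 0.0843) did not.

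Among 5 genes for the kinases that fire origins and their cyclins, 3 were higher and 0 lower in the knockout at both temperatures, in edgeR and in DESeq2, with 0 lower also at an unadjusted p of 0.05. CDC7, for the kinase that phosphorylates the MCM ring, stood at 0.76 ± 0.10 at 37 °C and 0.66 ± 0.12 at 30 °C. CDC28, for the cyclin-dependent kinase, stood at 0.56 ± 0.09 and 0.67 ± 0.09, and CLB5, for its S phase cyclin, at 0.68 ± 0.12 and 0.52 ± 0.12. With temperature 1 was higher and 2 lower in the knockout, CDC7 (0.41 ± 0.10), CDC28 (-0.33 ± 0.09) and CLB6, for another S phase cyclin (-1.08 ± 0.32, adjusted p = 0.0109), the last not called by DESeq2 (adjusted p = 0.0505). In wild type 0 of the 5 were called with temperature by edgeR or DESeq2, and 2 had an unadjusted p under 0.05. The next list held 7 genes that control licensing or the turnover of Cdc6. SIC1, for the inhibitor of S phase kinase, was lower in the knockout at 37 °C (-0.37 ± 0.08, adjusted p = 0.00171). It fell with temperature in the knockout (-0.50 ± 0.08). SKP1, for a core of the ubiquitin ligase that targets Cdc6 and Sic1, was higher in the knockout at 37 °C (0.29 ± 0.09, adjusted p = 0.0105). It was also higher there at 30 °C (0.28 ± 0.08, adjusted p = 0.0229, against 0.057 in DESeq2). SKP1 fell with temperature in the knockout (-0.39 ± 0.08) and in wild type (-0.40 ± 0.09). CDC4, for the subunit of that ligase that binds its targets, rose with temperature in the knockout (0.37 ± 0.08) and in wild type (0.41 ± 0.08). Of 4 fork protection genes, MRC1 was higher in the knockout at 30 °C (0.33 ± 0.09, adjusted p = 0.0127) and 0 of 4 were called at 37 °C by edgeR, by DESeq2 or at an unadjusted p of 0.05. MRC1 and CTF4 fell with temperature in the knockout (-0.22 ± 0.09 and -0.23 ± 0.09), calls that DESeq2 did not make (adjusted p = 0.102 and 0.134).

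Among 7 regulators of M/G1 transcription, YOX1, for the repressor that binds beside Mcm1 at the ECB, fell with temperature in the knockout (-1.07 ± 0.13, adjusted p = 1.75e-05) and in wild type (-0.53 ± 0.13, adjusted p = 0.00898). MCM1 itself, despite its name a transcription factor gene and no helicase subunit, was higher in the knockout at 37 °C (0.31 ± 0.06, adjusted p = 0.00121). CLN3, for a G1 cyclin, was higher in the knockout at 30 °C (0.43 ± 0.09, adjusted p = 0.0038). SWI4, for a factor of G1/S transcription, was lower in the knockout at 37 °C (-0.38 ± 0.09, adjusted p = 0.00357). Of the 43 other tested genes with an ECB-like palindrome upstream, 16 were higher and 11 lower in the knockout than in wild type at 37 °C (62.8% called, beside 59.8%), and 13 were higher and 19 lower in the knockout at 37 against 30 °C (74.4%, beside 59.1%). At 30 °C 11 were higher and 6 lower in the knockout than in wild type (39.5%, beside 29.6%). For the interaction 4 were higher and 13 lower (39.5%, beside 33.6%), and with temperature in wild type 6 were higher and 10 lower (37.2%, beside 32.8%). The MCB stood upstream of 152 other tested genes. Of these, 42 were higher and 5 lower in the knockout than in wild type at 30 °C (30.9% called), beside 14.6% and 15% of all genes (29.6%). At 37 °C 63 were higher and 18 lower (53.3%), beside 30.5% and 29.2% (59.8%). With temperature in the knockout 32 were higher and 42 lower (48.7%), beside 30.9% and 28.2% (59.1%). In wild type 19 were higher and 33 lower (34.2%), beside 15.7% and 17.1% (32.8%). For the interaction 18 were higher and 13 lower (20.4%), beside 16.4% and 17.2% (33.6%). A part of either motif was not tested. Of the 5 members with the palindrome, MCM5 and MCM7 were higher and MCM6 lower in the knockout than in wild type at 37 °C, while with temperature in the knockout MCM3, MCM6, MCM7 and CDC6 were lower and MCM5 was not called.

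Markers of cell cycle phases also differed between the groups. The summed level of 8 G1/S markers was 1395 to 1723 CPM in the knockout at 37 °C, 2112 to 2126 CPM in the knockout at 30 °C, 1201 to 1244 CPM in wild type at 37 °C and 1556 to 1688 CPM in wild type at 30 °C. Like CDC6, this sum was highest in the knockout at 30 °C. Of the 8 markers 4 were called higher and 1 lower in the knockout than in wild type at 37 °C. This stood beside 30.5% and 29.2% of all genes (median log2 fold change 0.273, beside 0.011 over all genes). At 30 °C RNR1 (0.78) and RFA1 (0.47) were higher and CLN2 (-0.31) lower. The median of the 8 was -0.003, the same as over all genes. The 152 genes with an MCB, which may include some of these markers, had a median of 0.122 in that comparison. The 7 G2/M markers summed to 625.6 to 687.9, 720.2 to 782.3, 637.4 to 668.3 and 817.7 to 828.4 CPM in those groups, so in both genotypes the sums were lower at 37 than at 30 °C, with 6 of 7 called lower and 1 higher in the knockout, and 4 lower and 0 higher in wild type by edgeR (3 and 0 by DESeq2, 6 and 0 at an unadjusted p of 0.05). The exception was the cyclin gene CLB1, higher with temperature in the knockout (1.19, adjusted p = 1.72e-07) and lower in wild type (-0.55). The 8 M/G1 markers of daughter cells summed to 1716 to 1908, 3444 to 3595, 9067 to 9222 and 6616 to 6675 CPM. All 8 were called lower in the knockout than in wild type at 37 °C, with a median log2 fold change of -2.34, and 6 of 8 were at 30 °C. With temperature all 8 fell in the knockout and 7 rose in wild type. CDC6, known to be expressed around M/G1, was higher in the knockout at 30 °C where these markers were lower. The part of cell cycle stage in the values of the members was not tested.

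**Figure D5:**
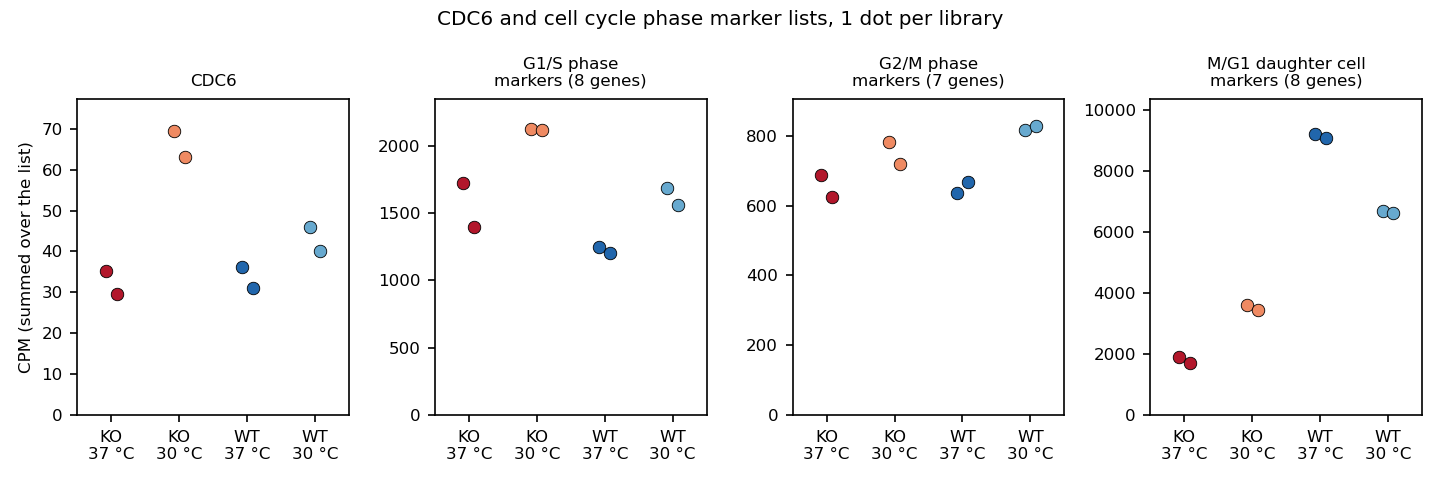
CDC6 (CPM) and the summed CPM of 3 phase marker lists (vertical axes, from 0) in the 4 groups, with 1 dot per library. CDC6 and the G1/S list are highest in the knockout at 30 °C, and the M/G1 list is lowest in the knockout at 37 °C (1908 and 1716 CPM).

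Over the 8 libraries, Pearson correlations of log2 CPM between members ran from -0.93 (MCM7 with MCM10) to 0.969 (MCM2 with MCM3). CDC6 was most like MCM3 (0.914) and MCM2 (0.891), and MCM5 and MCM6 stood at -0.62. Among 5118 other genes that averaged 10 CPM or more, those most like the mean profile of the 6 ring subunits were PDC1 (0.98), DED81 (0.98), LEU9 (0.977), RPL12A (0.973) and RPS26A (0.969). They encode a pyruvate decarboxylase, an asparaginyl-tRNA synthetase, an enzyme of leucine synthesis and a pair of ribosomal proteins, whose counts may include reads of their near-identical copies RPL12B and RPS26B. Most like CDC6 were MAP2 (0.979), EMP24 (0.979) and MSH6 (0.973), for a methionine aminopeptidase, a protein of secretory vesicles and a mismatch repair protein. MSH6 averaged 136.0 CPM at 37 °C and 187.0 CPM at 30 °C among knockout libraries, and 136.7 CPM and 155.6 CPM among wild type libraries. The 8 points are 4 groups of 2 that share libraries and scaling, and with so few points these values describe likeness alone.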

How the data were processed

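The authors deposited unnormalised gene counts for 8 libraries, made with STAR and HTSeq on the builds R64 and sacCer3, per the submitters' processing notes. Tool versions, strand setting and the treatment of reads with several places in the genome are not stated in those notes or in the files. Columns were matched to samples by genotype, temperature and replicate number. Systematic names matched an R64 annotation for 6008 of 6692 genes.

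Counts were fitted in R 4.3.3 with edgeR 4.0.16, by its quasi-likelihood F test on all 8 libraries with 1 coefficient per group, no block and TMM scaling. A filter by group (minimum count 10, minimum total 15) left 5667 genes. The Benjamini-Hochberg adjustment ran over those genes, with a threshold of 0.05, and the SE is the absolute log2 fold change over the square root of F. The spread is shared by all 4 groups, with 4 residual degrees of freedom, and may be technical. Counting error alone limits a gene of 139 counts more than one of 1376. The members, lists and comparisons were chosen with earlier results of these data known. Named genes are the members, RAD27, up to 4 called genes per list and comparison, from those with the largest change, and those most like the ring subunits (5) or CDC6 (3).

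On simulated counts the test recovered 81, 77, 80, 80 and 48 of 100 genes changed 1.5-fold in knockout against wild type at 37 °C and at 30 °C, 37 against 30 °C in the knockout and in wild type, and the difference of these (5616 to 5625 genes). It called 7 to 15 unchanged genes. All groups were simulated with the same spread, whereas real replicates differed most in the knockout at 37 °C, so these rates may not hold there. Changes smaller than 1.5-fold were not simulated. Copies were sought with blastn 2.17.0. Alternatives were other scalings and filters, DESeq2 1.42.0, a replicate block, the compared libraries alone and each library left out. Figures were made with Python 3.11.15 and matplotlib 3.10.9.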

Additional observations from a re-analysis of the deposited data

Results flagged for a closer look

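Among the members, the heat response (37 against 30 °C) differed between knockout and wild type, by the interaction in edgeR, for CDC6 (log2 difference -0.68 ± 0.18, adjusted p = 0.0112) and MCM6 (-0.44 ± 0.12, adjusted p = 0.0126). CDC6 fell by 1.04 on the log2 scale in the knockout and stood at -0.35 in wild type. MCM6 stood at -0.26 in the knockout and at 0.18 in wild type, and both libraries of the knockout at 37 °C were below the other 6.

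Of all genes tested, 16.4% were called higher and 17.2% lower for this difference (33.6% in all), so such a call is common. In edgeR 0 genes were called in the lists of origin recognition, other loading factors, firing kinases and fork protection. Among the licensing control genes and M/G1 regulators, the heat response was called different for SIC1 (-0.57 ± 0.12), YOX1 (-0.54 ± 0.19, adjusted p = 0.0416), CLN3 (-0.53 ± 0.13), DIA2 (0.69 ± 0.18) and MCM1 (0.44 ± 0.09). DESeq2 also called CDC6 and MCM6 and, of these 5, SIC1, CLN3 and MCM1, but not YOX1 (adjusted p = 0.115) or DIA2 (adjusted p = 0.0551). Phase markers were called as well by edgeR. CLN1 (1.01) was the 1 of 8 G1/S markers called. Of 7 G2/M markers 1 was higher (CLB1, 1.73) and 2 lower, and all 8 daughter cell markers were lower (-2.20 to -0.92). DIA2, for an F-box protein that helps to take the helicase apart at termination, rose with temperature in the knockout by 0.36 ± 0.13 in edgeR but was not called by DESeq2 (adjusted p = 0.145), and it was lower in the knockout than in wild type at 30 °C (-0.53 ± 0.13).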

How the results depend on the processing

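With no change of scaling, filter or test but one library left out at a time, the number of members called ran from 1 to 5 in knockout against wild type at 37 °C (1 without wild type replicate 1 at 37 °C), from 1 to 2 at 30 °C (1 without wild type replicate 2 at 30 °C), from 4 to 7 with temperature in the knockout (4 without knockout replicate 1 at 30 °C) and from 2 to 7 with temperature in wild type. In the last case the count was 5 to 7 without any one knockout library, none of which is in that comparison. For the interaction it ran from 0 to 3, with 0 in edgeR without knockout replicate 1 at 30 °C, wild type replicate 1 at 37 °C or wild type replicate 2 at 30 °C. Counts over all genes ran from 972 to 2164 for knockout against wild type at 30 °C (972, 1005 and 1087 without wild type replicates 1 and 2 and knockout replicate 2 at 30 °C, 1680 with all) and from 1044 to 2267 with temperature in wild type (1044 without wild type replicate 1 at 37 °C, 1121 without wild type replicate 2 at 30 °C, 1858 with all). DESeq2 called 1075 genes between the genotypes at 30 °C and 4 members with temperature in the knockout.

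Scaling to library totals left 4 members called with temperature in the knockout, 2 in each direction, with MCM4 at 0.175 and MCM7 at 0.0184, each of opposite sign to TMM. It gave 2182 genes higher and 1123 lower for knockout against wild type at 37 °C (1731 and 1656 with TMM), 2803 and 842 with temperature in the knockout (1751 and 1596), 1497 and 596 in wild type (891 and 967) and 1197 and 604 for the interaction (930 and 972). Using the compared libraries alone called 7 members with temperature in wild type. Deviations of same-numbered libraries correlated at -0.111 to 0.114 over the 6 pairs of groups, so numbers were not taken as pairing. A replicate block within genotype called 5 members with temperature in wild type in place of 3 and moved no other count of members or genes by more than 1.5 times. Counting error limits CDC6 and MCM10, the members with the fewest reads. The cause was not tested for any of these changes.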
